A study of Mus musculus with 8 samples.

Results

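The MYC and MAX network genes were followed in mouse 2-cell embryos cultured with or without triclocarban, an antibacterial compound of soaps and other personal care products. They were 10 genes chosen by symbol for their known place in the network, Myc, Mycn, Mycl, Max, Mxd1, Mxd3, Mxd4, Mxi1, Mnt and Mlx, out of 37310 genes in the table, and each symbol matched 1 gene identifier. Fertilized eggs were cultured in G1 medium, and polyadenylated RNA was sequenced at the 2-cell stage. The control group was 4 libraries of embryos in medium with the solvent DMSO, and the triclocarban group was 4 libraries of embryos in medium with 6 µM triclocarban. All 8 libraries are labelled as 2-cell embryos of the mouse. The sources used here give no strain, age of the females, hour of collection, number of embryos per library or sequencing batch. Whether the libraries of 1 group are separate cultures is not stated, and p-values therefore cover only the variation among these libraries, which may be technical. Values are FPKM, fragments per kilobase of transcript relative to the library's total, so they can be compared between genes within a library. The FPKM sum differed between libraries, from 477882 in triclocarban library 2 to 605986 in control 4. A comparison between libraries depends on the scaling used, and some results changed with it. FPKM values are a share of each library's RNA, and fewer cells and less RNA per cell cannot be told apart.

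MYC, MYCN and MYCL are transcription factors that bind DNA only as a pair with MAX, at the E-box sequence CACGTG and its variants, and raise the transcription of genes for ribosome assembly, nucleotide synthesis and growth. MXD1, MXI1, MXD3, MXD4 and MNT compete for MAX, bind the same sites and bring in the SIN3 and histone deacetylase corepressor. MLX is the partner of a parallel set of factors, MLXIP and MLXIPL, which respond to sugar, and it can also pair with MXD1, MXD4 and MNT. In the mouse, the oocyte passes on a store of MAX, and Myc is among the genes transcribed around the activation of the embryo's own genome at the 2-cell stage.

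The E-box lies in the promoters of some of the network's own genes, so the promoters of 3 members that the results below turn on are shown first, Max and Mlx, which have the E-box, and Mycn, which fell deeply and whose window does not hold these letters. Sequences are from RefSeq (GRCm38.p6), 5′ to 3′ on the gene's strand, and end at most 30 bases past the most upstream annotated start of transcription. Capitals mark CACGTG, which reads the same on both strands.
Max, chr12:76962219-76962498, minus strand: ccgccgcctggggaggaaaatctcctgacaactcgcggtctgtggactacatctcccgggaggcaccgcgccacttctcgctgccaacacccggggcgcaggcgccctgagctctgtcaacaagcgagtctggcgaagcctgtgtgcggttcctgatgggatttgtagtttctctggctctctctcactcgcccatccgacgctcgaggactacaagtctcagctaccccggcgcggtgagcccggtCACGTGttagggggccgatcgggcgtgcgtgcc
Mlx, chr11:101087040-101087306, plus strand: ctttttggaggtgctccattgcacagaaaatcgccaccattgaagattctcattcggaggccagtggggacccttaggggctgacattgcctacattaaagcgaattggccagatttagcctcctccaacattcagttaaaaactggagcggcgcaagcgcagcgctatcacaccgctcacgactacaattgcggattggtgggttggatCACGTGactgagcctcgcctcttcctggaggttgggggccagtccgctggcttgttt
Mycn, chr12:12941885-12942086, minus strand: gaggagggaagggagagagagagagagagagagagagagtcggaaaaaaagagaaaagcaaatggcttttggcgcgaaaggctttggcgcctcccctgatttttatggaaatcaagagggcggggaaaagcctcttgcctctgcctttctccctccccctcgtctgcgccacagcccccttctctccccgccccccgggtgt
The RefSeq table had windows of 250 bases before to 50 bases after the start for 9 of the 10 members (not Myc), 11 windows in all. CACGTG was in 1 window each of Max, Mlx, Mxd4 and Mnt. Its first base lay 3 bases before the RefSeq start in Max, so that the E-box spans the start itself, 40 bases before it in Mlx, 123 in Mnt and 219 in Mxd4. Of all 32851 windows of 300 bases in the table, 7.2% held CACGTG. A match is a description of the letters and not evidence of binding. The 3 promoters shown were chosen with the changes of these genes known. Mxd4, with CACGTG, had a log2(FPKM + 1) difference between triclocarban and control of 0.01, and Mxd1, without it, of 0.15. The members with the lowest levels have values only from a fit with no filter on low values. There Mnt, with CACGTG, was at -0.26, and Mycl, Mxd3 and Mxi1, without it, were at -0.21, -1.19 and -0.50.

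The libraries held the marks of early embryos and differed by more than the treatment. All 6 marker genes of oocytes and 2-cell embryos were at 1 FPKM or more in at least 4 libraries, with a summed level of 1330 to 3310 FPKM in controls and 3230 to 6040 with triclocarban. Btg4, a maternal gene of mRNA decay, made most of that sum (means of 1640 and 4270 FPKM), and Ooep was also higher with triclocarban (67.7 and 446.0), while Zfp352 (218.0 and 106.0), Zp3 (53.1 and 25.1) and Obox3 (86.0 and 20.3) were lower in mean FPKM. Of 9 cumulus and granulosa cell markers, 3 reached that level (Tnfaip6, Fshr and Cyp19a1), with a sum of 4.9 to 9.94 FPKM in controls and 9.86 to 18.1 with triclocarban, and Amh was at 0 in every library. These 3 did not move together, since the mean of Tnfaip6 went from 3.3 to 0.331 FPKM while that of Cyp19a1 went from 2.34 to 8.33 and that of Fshr from 0.921 to 3.04. Of 4 sperm genes only Prm2 reached it, with sums of 1.12 to 5.13 and 6.87 to 9.32 FPKM. The blood gene Hba-a1 reached it too, while Hbb-bs was at 0 everywhere, and the 3 blood genes summed to 37.8 to 68.2 FPKM in controls and 7.01 to 27.0 with triclocarban. These sums moved with the treatment, and their part in the results was not tested. Mitochondrially encoded genes took 16.6 to 24.3% of the FPKM sum in controls and 11.1 to 17.6% with triclocarban. Across tested genes, log2(FPKM + 1) correlated at 0.974 between controls 1 and 2, at 0.976 between controls 3 and 4 and at 0.874 to 0.907 between these pairs, and this pairing recurs in several genes below. Of 12941 genes tested, 42.1% passed the threshold of a Benjamini-Hochberg adjusted p under 0.05 in limma (11.3% higher with triclocarban, 30.8% lower), and the median change over all of them was -0.19 on the log2(FPKM + 1) scale. Median-of-ratios scaling moved it to 0.06 and quantile normalization to 0.14, so a change is best read relative to these values.

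Among the members, the 2 measurable MYC genes fell, Mlx rose, and the MXD genes with the highest levels, Mxd1 and Mxd4, did not pass the test. The filter of at least 1 FPKM in at least 4 libraries was passed by 6 of the 10 members (Myc, Mycn, Max, Mxd1, Mxd4 and Mlx). Of these 6, 2 were lower and 1 higher, which is 3 of 6 where 42.1% of all tested genes were called. Myc and Mycn passed the filter only through the controls, where they are high, so they had to differ, and these counts are a description. The groups did not overlap for 4 of the 10 members, Myc, Mycn, Mxd3 and Mlx. Mxd3 was below the filter, so among the 6 tested members these were Myc, Mycn and Mlx. Of all tested genes, 40.2% showed no overlap.

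**Figure D1:**
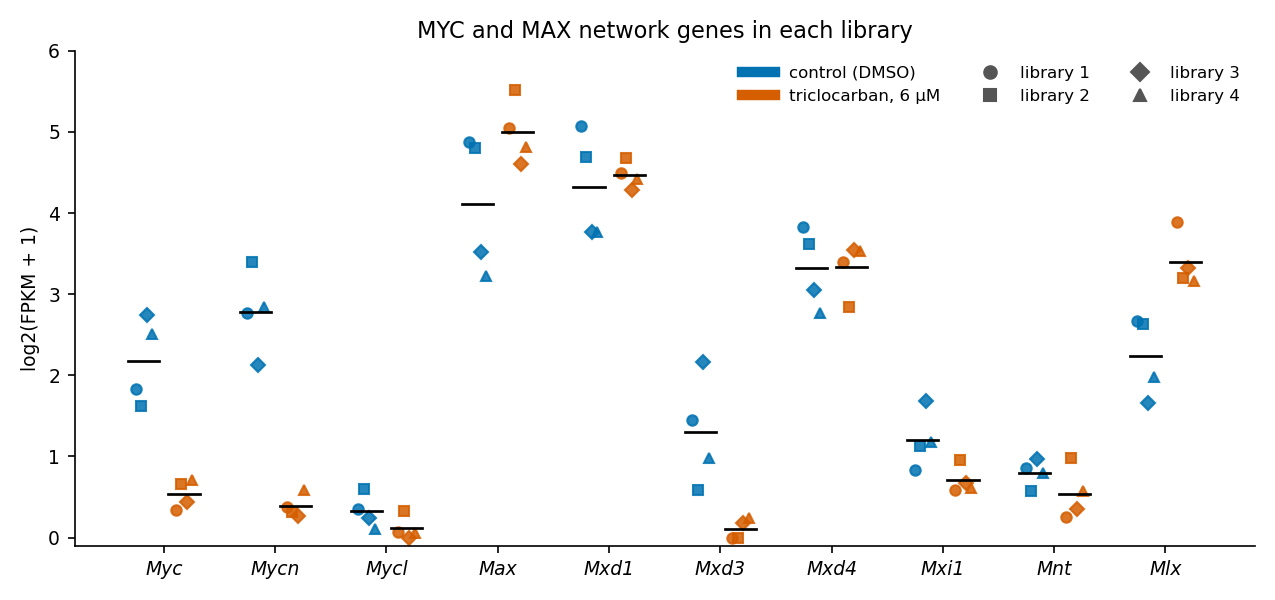
Level of the 10 members in each library as log2(FPKM + 1); blue marks are the 4 controls, orange marks the 4 triclocarban libraries, the marker shape is the library number and black lines are group means. Myc and Mycn lie below 1 on this scale in every triclocarban library, and Mlx lies higher in all 4 of them than in any control.

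Mycn, whose protein drives growth in embryonic and neural progenitor cells, had the deepest fall among the tested members (ENSMUSG00000037169.8, chr12:12936093-12941914, minus strand, GRCm38). Its level was 5.81, 9.57, 3.35 and 6.16 FPKM in controls 1 to 4 and 0.3, 0.24, 0.2 and 0.5 FPKM in triclocarban libraries 1 to 4. The lowest control lay well above the highest treated library, and the control order did not follow the pairs, since control 4 was above control 1. The means were 6.22 ± 2.56 and 0.309 ± 0.134 FPKM (SD, n = 4 each), 20.1-fold lower with triclocarban, and the log2(FPKM + 1) difference was -2.40 ± 0.28 (standard error, limma adjusted p = 0.000104). In a fit with no filter on low values, where 19.7% of 28046 genes were called, the adjusted p was 0.00127.

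Myc, the founding gene of the family (ENSMUSG00000022346.8, chr15:61985391-61990374, plus strand), followed the same direction. It was at 2.55, 2.08, 5.7 and 4.68 FPKM in the controls and at 0.27, 0.58, 0.35 and 0.64 FPKM with triclocarban. Controls 3 and 4 were the high ones here, and every treated library was below every control. The means were 3.75 ± 1.72 and 0.457 ± 0.177 FPKM (SD, n = 4 each), 8.21-fold lower, with a log2(FPKM + 1) difference of -1.64 ± 0.28 (standard error, limma adjusted p = 0.000764, and 0.00624 with no filter). Against controls 3 and 4 alone the difference was -2.09 and against controls 1 and 2 alone -1.19, so its size differed with the pair of controls. Myc passed the filter only through the controls, so its call with either pair is a description. The third family member, Mycl (chr4:122995652-123002485, plus strand), was low throughout, at 0.28, 0.51, 0.18 and 0.08 FPKM in controls and 0.05, 0.26, 0 and 0.04 FPKM with triclocarban. Its groups overlapped and it stayed below the filter, and the fit with no filter gave a difference of -0.21 (limma adjusted p = 0.264).

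Max, the shared partner of the MYC and MXD proteins (ENSMUSG00000059436.5, chr12:76937269-76962201, minus strand), was not lost with the MYC genes. It was at 28.46, 27.0, 10.46 and 8.38 FPKM in controls 1 to 4 and at 31.94, 44.9, 23.37 and 27.02 FPKM with triclocarban. Controls 1 and 2 lay within the treated range, and controls 3 and 4 lay far below it. The means were 18.6 ± 10.6 and 31.8 ± 9.41 FPKM (SD, n = 4 each), and the log2(FPKM + 1) difference of 0.89, with a standard error of 0.40, did not pass (limma adjusted p = 0.0989). The answer for Max turned on which controls were used and on the scaling. It was 0.15 without controls 3 and 4 (limma adjusted p = 0.746), 1.62 without controls 1 and 2 (0.00246) and 1.14 without control 1 (0.0362). After median-of-ratios scaling it was 1.18 (limma adjusted p = 0.0227), and after quantile normalization also 1.18 (0.0352).

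Mlx, the hub of the sugar-responsive branch (ENSMUSG00000017801.9, chr11:101087277-101092207, plus strand), was the 1 member that passed the threshold as higher. It was at 5.38, 5.18, 2.15 and 2.93 FPKM in controls and at 13.83, 8.16, 9.0 and 7.96 FPKM with triclocarban. All treated libraries lay above all controls, and controls 3 and 4 were again the low pair. The means were 3.91 ± 1.61 and 9.74 ± 2.77 FPKM (SD, n = 4 each), 2.49-fold higher, with a log2(FPKM + 1) difference of 1.16 ± 0.31 (standard error, limma adjusted p = 0.0106). Against controls 1 and 2 alone the difference was 0.74 and did not pass (limma adjusted p = 0.0843). The 3′ end of Mlx overlaps Psmc3ip on the opposite strand by 385 bases, and the strand setting of the counting is not stated. Psmc3ip, a recombination cofactor gene, went the other way, from a mean of 50.2 to 8.28 FPKM.

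Mxd1, which encodes the antagonist first described as MAD1 (ENSMUSG00000001156.7, chr6:86647042-86669161, minus strand), was the member with the highest mean in controls. It was at 32.52, 24.76, 12.56 and 12.57 FPKM in controls and at 21.44, 24.66, 18.5 and 20.37 FPKM with triclocarban. The treated libraries fell between the pairs of controls. The log2(FPKM + 1) difference was 0.15, with a 95% interval of -0.57 to 0.87 (limma adjusted p = 0.748). Against controls 1 and 2 alone it was -0.41 (limma adjusted p = 0.257) and against controls 3 and 4 alone it was 0.71 (limma adjusted p = 0.0297), so the direction turned with the pair. Mxd4 (ENSMUSG00000037235.7, chr5:34173883-34187720, minus strand), a related antagonist, was at 13.16, 11.31, 7.31 and 5.83 FPKM in controls and at 9.56, 6.17, 10.71 and 10.56 FPKM with triclocarban. The groups overlapped fully, and the difference was 0.01 with a 95% interval of -0.66 to 0.68 (limma adjusted p = 0.978). Its direction turned in the same way, at 0.42 against controls 3 and 4 alone and -0.39 against controls 1 and 2 alone, neither past the threshold.

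The other antagonists were low. Mxd3 (chr13:55325168-55329823, minus strand), which encodes an antagonist found in dividing cells, was at 1.74, 0.5, 3.49 and 0.98 FPKM in controls and at 0, 0, 0.13 and 0.18 FPKM with triclocarban. The groups did not overlap, but only 2 libraries reached 1 FPKM, so Mxd3 stayed below the filter, and the fit with no filter gave a difference of -1.19 (limma adjusted p = 0.029). Its end overlaps Prelid1 on the opposite strand by 105 bases. Prelid1 went in the same direction, from 43.46 to 53.72 FPKM in controls to 13.35 to 31.92 FPKM with triclocarban, and its part in the values of Mxd3 was not tested. Mxi1 (chr19:53310518-53375810, plus strand), also an antagonist of MYC, was at 0.78, 1.18, 2.21 and 1.26 FPKM in controls and at 0.5, 0.94, 0.59 and 0.53 FPKM with triclocarban. Control 1 lay within the treated range, and the fit with no filter gave -0.50 (limma adjusted p = 0.168). Mnt (chr11:74830920-74845725, plus strand), which is expressed in most tissues and acts as a general antagonist, was at 0.81, 0.49, 0.95 and 0.73 FPKM in controls and at 0.19, 0.98, 0.28 and 0.49 FPKM with triclocarban. Triclocarban library 2 was above every control for Mnt and the other 3 treated libraries were at about the lowest control or below it, and the fit with no filter gave -0.26 (limma adjusted p = 0.414).

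**Figure D2:**
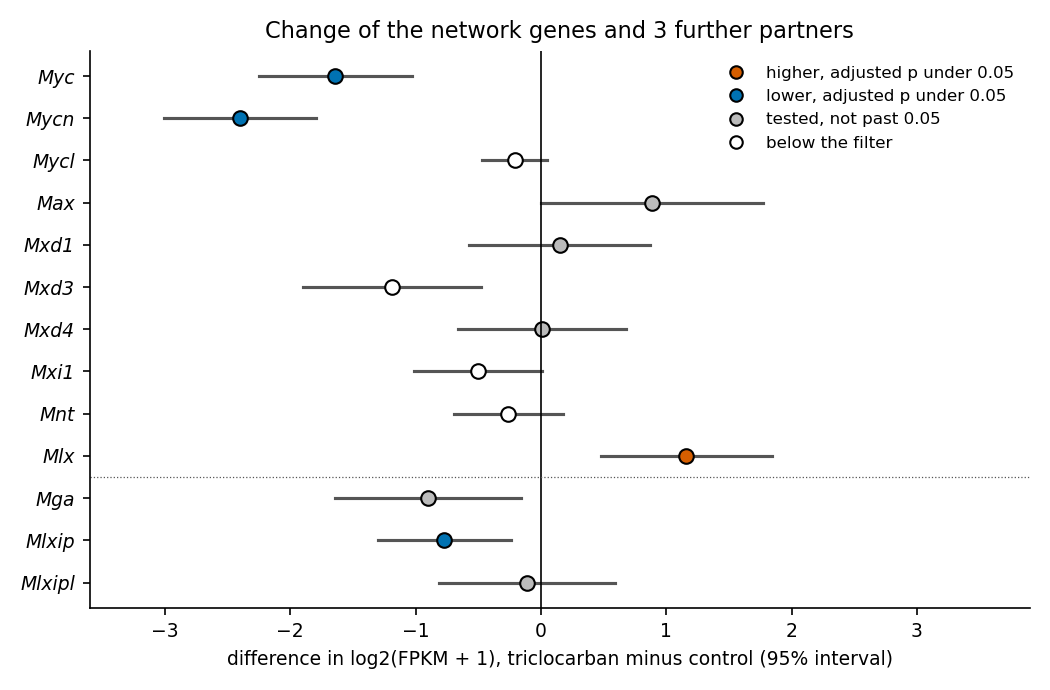
Difference in log2(FPKM + 1) between triclocarban and control with its 95% interval for the 10 members and, below the dotted line, 3 further partners of MAX or MLX; filled marks are tested genes and open marks are members below the filter, whose values come from the fit with no filter. Myc and Mycn lie at -1.64 and -2.40, Mlx at 1.16 and Mxd4 at 0.01. The intervals are not adjusted for the number of genes.

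The order of the levels differed between the groups. In controls the mean FPKM ran from Mxd1 at 20.6 over Max at 18.6, Mxd4 at 9.4, Mycn at 6.22, Mlx at 3.91, Myc at 3.75, Mxd3 at 1.67, Mxi1 at 1.36 and Mnt at 0.747 to Mycl at 0.263. The ranges of all neighbours in that order overlapped. With triclocarban Max was first at 31.8 FPKM, followed by Mxd1 at 21.2, Mlx at 9.74 and Mxd4 at 9.25, and all others were at 0.638 FPKM or less. The range of Mxd1 was apart from that of Mlx, and that of Mxd4 from that of Mxi1, while the ranges of the other neighbours overlapped. With triclocarban the 4 members above 1 FPKM were thus Max, Mlx and a pair of antagonists.

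The summed transcripts of the MAX partners among the members held far fewer MYC-type transcripts in treated embryos. These sums are a description with no test. They leave out Mga, a further MAX partner taken up below. Mga was at 11.77, 19.12, 36.25 and 32.17 FPKM in controls and 10.48 to 13.26 FPKM with triclocarban. Myc, Mycn and Mycl together made 8.65, 12.2, 9.23 and 10.9 FPKM in controls 1 to 4 and 0.621, 1.08, 0.544 and 1.18 FPKM in triclocarban libraries 1 to 4. The 5 antagonists together made 49.0, 38.2, 26.5 and 21.4 FPKM in controls and 31.7, 32.7, 30.2 and 32.1 FPKM with triclocarban, so the treated libraries were alike and lay between the pairs of controls. The MYC-type share of the FPKM of these partners was 15.0, 24.1, 25.8 and 33.8% in controls and 1.92, 3.19, 1.77 and 3.53% with triclocarban. The means were 24.7 ± 7.72% and 2.6 ± 0.888% (SD, n = 4 each). This share is a ratio within each library, so dividing a library by 1 scaling factor does not change it. The difference of -22.1 percentage points was -17.0 against controls 1 and 2 alone and -27.2 against controls 3 and 4 alone. Counting Mga as a partner would lower every share and narrow the difference between the groups.

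The 4 control libraries reached their MYC-type sum in different ways. Mycn made 67.2, 78.7, 36.3 and 56.4% of it in controls 1 to 4, so Mycn led in controls 1, 2 and 4 and Myc in control 3. Mxd1 and Mxd4 made 74.9 to 94.3% of the antagonist sum in controls and 94.1 to 97.8% with triclocarban. Per unit of Max, the sum of the 8 partners was 2.03, 1.87, 3.42 and 3.85 in controls and 1.01, 0.753, 1.32 and 1.23 with triclocarban. Transcripts of these 8 partners, without Mga, thus exceeded Max transcripts in every control, and in triclocarban library 2 they did not. The ratio of Mlx to Max overlapped between the groups, with means of 0.234 ± 0.0775 and 0.324 ± 0.111 (SD, n = 4 each).

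**Figure D3:**
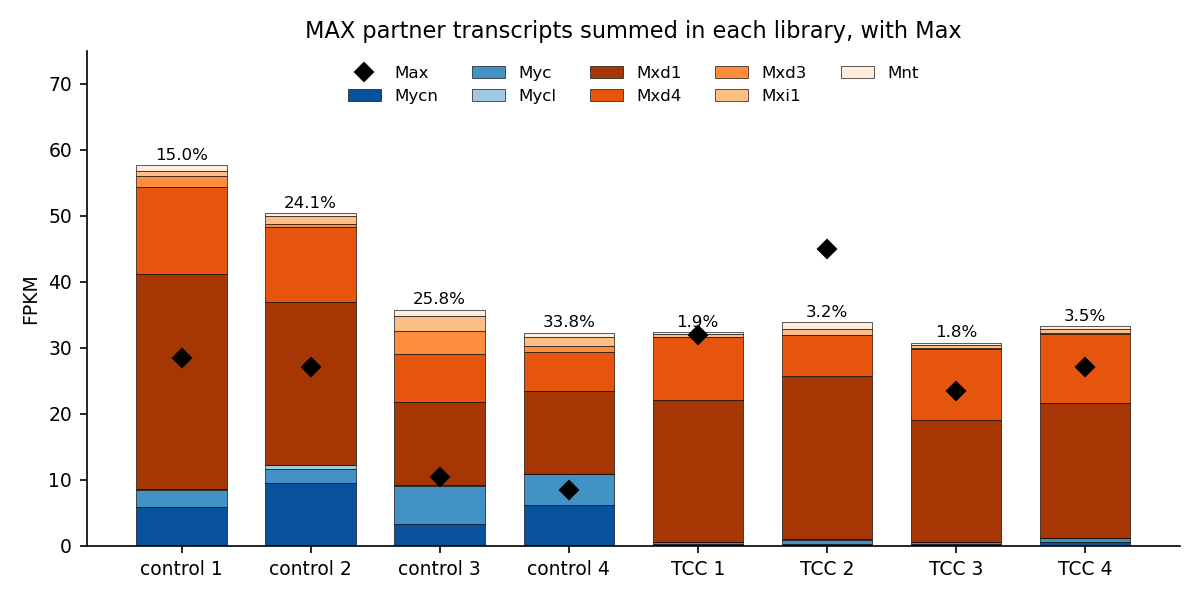
FPKM of the 8 MAX partner genes among the members, without Mga, stacked for each library, with MYC-type genes in blue and antagonists in orange. Max is a black diamond, and the MYC-type share of these 8 is printed above each bar. The blue part is 15.0 to 33.8% of the bar in controls and 1.77 to 3.53% with triclocarban.

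The levels of the 6 tested members under other choices showed which statements rest on the control pair. Without controls 1 and 2, when 54.5% of all tested genes were called, Myc, Mycn, Max, Mxd1 and Mlx passed the threshold. Without controls 3 and 4, when 30.4% were called, only Myc and Mycn did. These fits kept the filter of all 8 libraries, which Myc and Mycn passed only through the controls, so their calls are a description. Leaving out any 1 library kept Myc between -1.82 and -1.45, Mycn between -2.62 and -2.19 and Mlx between 0.97 and 1.31, each past the threshold. Triclocarban library 2, which had the highest Max and Mnt of its group, changed no member's call when it was left out.

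**Figure D4:**
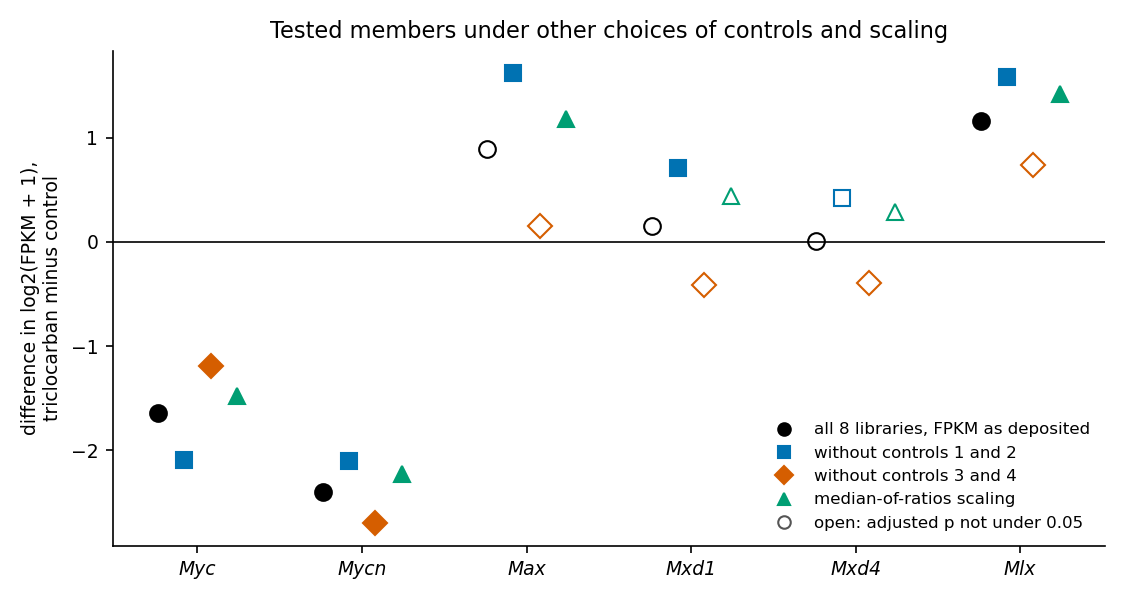
Difference in log2(FPKM + 1) between triclocarban and control for the 6 tested members with all libraries (black circles), without controls 1 and 2 (blue squares), without controls 3 and 4 (orange diamonds) and after median-of-ratios scaling (green triangles); open marks have an adjusted p that is not under 0.05. Max ranges from 0.15 to 1.62, whereas Myc and Mycn, which passed the filter only through the controls, stay negative and filled.

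Of the 3 further partners of MAX or MLX, 1 was lower and 0 were higher. Mlxip, which encodes MondoA, the main partner of MLX, went from 11.7 ± 2.03 to 6.42 ± 0.854 FPKM (SD, n = 4 each), which is a difference of -0.77 on the log2(FPKM + 1) scale (limma adjusted p = 0.0235), opposite in direction to Mlx. It missed the threshold after median-of-ratios scaling (limma adjusted p = 0.107), after quantile normalization (0.236), without control 2 (0.0711), and without triclocarban library 1 (0.0698), 3 (0.0506) or 4 (0.0502). Mga, a large MAX partner that recruits a Polycomb complex, was at 11.77, 19.12, 36.25 and 32.17 FPKM in controls and 10.48 to 13.26 FPKM with triclocarban, and its difference of -0.90 missed the threshold (limma adjusted p = 0.0515). It passed with the filter at 5 FPKM (limma adjusted p = 0.0488), without mitochondrially encoded genes (0.0422), without trend (0.049) and with library weights (0.0214). After median-of-ratios scaling it was -0.61 (limma adjusted p = 0.199) and after quantile normalization -0.51 (0.252), neither past the threshold. Without control 1 it was -1.20 (limma adjusted p = 0.00682), without controls 1 and 2 it was -1.46 (0.000947) and without controls 3 and 4 it was -0.33 (0.405). Mlxipl, which encodes ChREBP, had means of 6.4 and 6.03 FPKM (limma adjusted p = 0.81). Of 2 known targets of MLX with MondoA, Arrdc4 went from 10.1 ± 6.38 to 2.4 ± 0.817 FPKM (log2 difference -1.52, limma adjusted p = 0.0132). Without controls 1 and 2 it did not pass (-0.76, limma adjusted p = 0.0805). Txnip, which encodes a thioredoxin-binding protein, was at 10.81 to 15.54 FPKM in controls and 7.45 to 17.64 FPKM with triclocarban (limma adjusted p = 0.59).

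Genes whose products act with the network were listed with earlier results of these data known, and their counts are a description. Of 16 MYC cofactors, 8 were lower and 0 higher, and the median log2 difference was -0.92, beside 30.8% lower, 11.3% higher and a median of -0.19 for all tested genes. Brd8, a bromodomain subunit of the TIP60 acetyltransferase complex, went from 37.1 ± 13.1 to 8.42 ± 1.37 FPKM. Cdk9 and its cyclin Ccnt1, the kinase pair that releases paused RNA polymerase II, went from 35.6 ± 12.5 to 7.2 ± 2.7 FPKM and from 29.2 ± 6.51 to 9.54 ± 1.41 FPKM (SD, n = 4 each). With quantile normalization 3 cofactors were higher and 5 lower. The 13 genes listed as corepressors of MXD proteins and MNT, which are SIN3 complex genes and Ncor1, went both ways. Of these, 3 were higher and 2 lower, with a median of 0.04. With so few genes neither count is read as a departure from the 11.3% and 30.8% of all tested genes, and the median was -0.07 to 0.24 over left-out libraries and 0.38 without controls 1 and 2. Hdac1, a histone deacetylase, went from 79.2 ± 20.2 to 20.8 ± 3.02 FPKM and Brms1, a subunit of the complex, from 35.8 ± 6.39 to 12.5 ± 4.82 FPKM. The histone-binding subunit gene Rbbp7 went from 199.0 ± 26.6 to 721.0 ± 321.0 FPKM, Sap30 from 207.0 ± 21.2 to 420.0 ± 145.0 FPKM and the scaffold gene Sin3b from 50.7 ± 22.0 to 102.0 ± 25.9 FPKM. Sin3b lost its call without control 3 or 4 or without triclocarban library 1, 3 or 4, with adjusted p up to 0.0888, and was at 0.50 without both controls 3 and 4 (limma adjusted p = 0.256). Sap30 lost its call without triclocarban library 1, 3 or 4 (limma adjusted p up to 0.0754) and without controls 1 and 2 (0.0659). After median-of-ratios scaling 5 of the 13 were higher and 2 lower.

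Of 18 genes that set how long MYC protein lasts, 17 were tested, 6 were lower and 2 higher, with a median of -0.25. These shares lie near the 30.8% lower and 11.3% higher of all tested genes. The median was -0.33 to -0.11 over left-out libraries and turned to 0.02 after median-of-ratios scaling and to 0.17 after quantile normalization. Skp2, an F-box subunit of a ubiquitin ligase for MYC, went from 26.9 ± 6.55 to 9.39 ± 1.45 FPKM, and Usp36, a nucleolar deubiquitinase, from 8.26 ± 3.57 to 2.03 ± 0.522 FPKM (SD, n = 4 each). The ubiquitin ligase genes Trim32, from 4.79 ± 1.69 to 11.7 ± 4.25 FPKM, and Btrc, from 4.02 ± 1.25 to 7.4 ± 0.779 FPKM, were higher. Trim32 did not pass without controls 3 and 4 (limma adjusted p = 0.114). Btrc lost its call without control 1, 2 or 4 or without triclocarban library 1, 3 or 4 (limma adjusted p up to 0.0824). The split was 4 higher and 3 lower after median-of-ratios scaling or quantile normalization, and 3 were lower without controls 3 and 4.

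Genes known as direct targets that MYC activates were lower in most tested members of the ribosome group. In ribosome assembly, 17 of 24 were lower and 0 higher, with a median of -1.75. Bop1, Rrp9 and Nop2, which act in the nucleolus on ribosomal RNA, had log2(FPKM + 1) differences of -3.25, -3.08 and -3.14. Bop1 lay at 13.59 to 19.52 FPKM in controls and at 0.58 to 0.97 FPKM in treated libraries. It passed the filter only through the controls and so had to differ (limma adjusted p = 0.000305 with no filter), and 16 of the other 23 were lower. Without controls 1 and 2 the median of the 24 ribosome genes was -2.47, with 20 lower and 0 higher. Without controls 3 and 4 it was -1.28, with 15 lower and 2 higher, and after median-of-ratios scaling 16 were lower and 1 higher. In metabolism, 12 of 21 were lower and 1 higher, with a median of -1.07. Cad and Dnph1, of nucleotide metabolism, passed the filter only through the controls, and 10 of the other 19 were lower. Ppat, the first enzyme of purine synthesis, went from 117.0 ± 53.7 to 6.39 ± 4.03 FPKM. Ldha, which encodes lactate dehydrogenase A, went from 26.2 ± 6.74 to 5.11 ± 0.76 FPKM, and the transferrin receptor gene Tfrc from 75.7 ± 27.0 to 14.3 ± 2.01 FPKM. The mitochondrial co-chaperonin gene Hspe1 was the higher one, at 81.5 ± 32.8 and 189.0 ± 17.7 FPKM, and without controls 1 and 2 there were 5 higher ones. After median-of-ratios scaling or quantile normalization 9 metabolism genes were lower and 4 higher. In growth and cell cycle, 4 of 10 tested genes were lower and 0 higher, with a median of -0.72. Prmt5, an arginine methyltransferase gene, went from 28.1 ± 8.73 to 3.93 ± 0.612 FPKM, the prothymosin gene Ptma from 184.0 ± 61.7 to 33.5 ± 3.24 FPKM and the cyclin gene Ccnd1 from 2.66 ± 0.618 to 0.99 ± 0.304 FPKM. Ccnd1 missed the threshold after quantile normalization (limma adjusted p = 0.0847). These shares stand beside the 30.8% of all tested genes that were lower. The list of ribosome genes was drawn up with its fall in these libraries already known, so its count is not independent evidence.

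**Figure D5:**
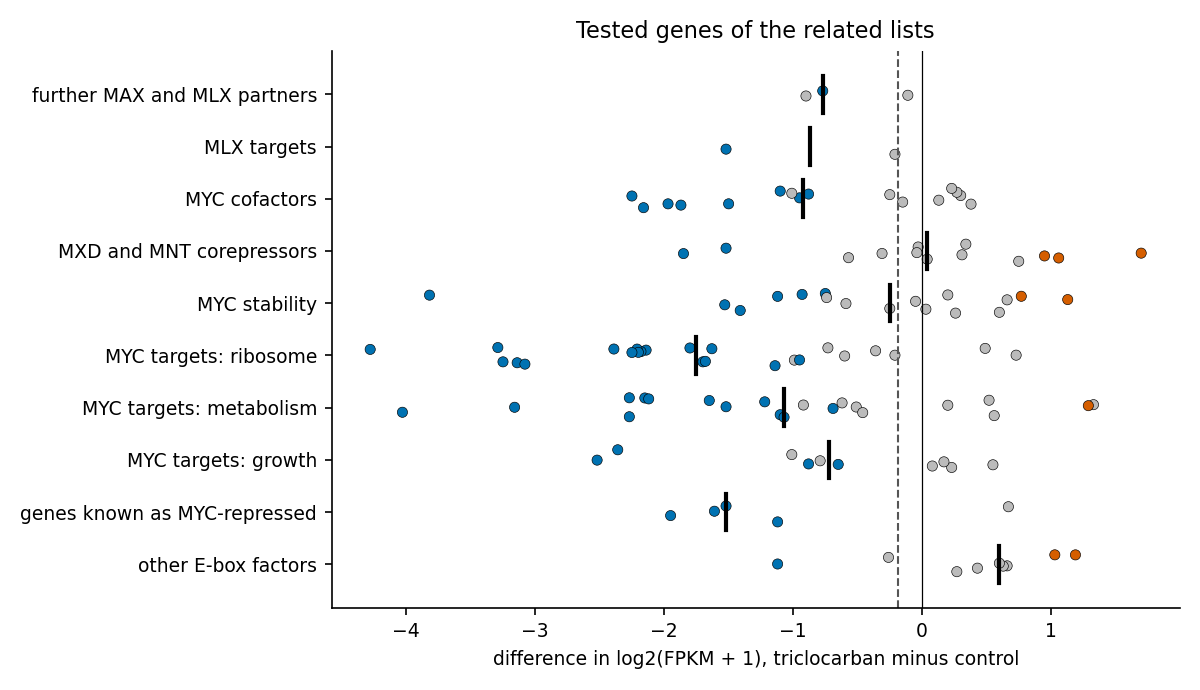
Difference in log2(FPKM + 1) between triclocarban and control for each tested gene of the related lists; blue and orange points are lower and higher at an adjusted p under 0.05, grey points did not pass, black bars are list medians and the dashed line is the median of all tested genes at -0.19. The ribosome targets have a median of -1.75 and the corepressor genes one of 0.04.

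The genes whose level across the 8 libraries was most like that of Mycn, the MYC-type member with the highest mean, included Ptger4 (Pearson r = 0.990), Dexi (0.989), Cdc42ep4 (0.988) and Ldha (0.986), among 10519 named genes compared on log2(FPKM + 1). Ptger4 encodes a prostaglandin receptor, and its mean FPKM went from 8.58 to 2.17. The genes most like Max were Arl14epl (r = 0.995), Ap3b1 (0.991), Stim2 (0.990), Vamp4 (0.989) and Gnb4 (0.989). Stim2 encodes a calcium sensor of the endoplasmic reticulum, and Ap3b1 and Vamp4 encode proteins of vesicle traffic. The 8 points of each correlation fall into 2 groups and the pairs of controls, and no test was made.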

How the data were processed

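The authors deposited FPKM in 1 table with a column for each library, matched by the sample description. Per the labels' protocols, reads were paired and 150 bases long, after 16 to 18 cycles of preamplification in one of the 2 library preparations described. The submitters' processing notes name STAR, StringTie, featureCounts, DESeq2 1.30.1 and mm10, without roles. Neither the annotation release nor the strand setting is given in the sources used here. Depth is unknown: with exon lengths of GENCODE M21 (GRCm38), 5.3 to 7.2% of low values lay within 0.02 of a whole fragment, where chance gives 4%, so no count test was run. No libraries were identical. Symbols matched 32620 identifiers (87.4%).

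The 12941 genes that reached 1 FPKM in 4 or more of the 8 libraries were tested with limma 3.58.1 (eBayes with trend, R 4.3.3) on log2(FPKM + 1), with adjustment over all of them and a threshold of 0.05. Changes on this scale understate those of low genes. Folds are ratios of mean FPKM. The step was checked on simulated data. Python 3.11.15 with pandas 2.3.3 and numpy 2.4.6 made the tables. Named genes were the 10 members, all further partners and MLX targets, up to 3 genes per list and direction with the smallest adjusted p, and the 5 most like Mycn and Max. Members, lists and control pairs were chosen with earlier results of these data known. Alternatives were other pseudocounts, filters and scalings, a replicate block, no trend, library weights, and leaving out libraries. The library weights stopped before full convergence. Prmt1 had no match and was not analysed here. A few genes that the naming rule takes are not reported here.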

Additional observations from a re-analysis of the deposited data

How the results depend on the processing

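Myc, Mycn and the MYC-type share kept direction under every alternative run, and Myc and Mycn kept their call, although neither enters a filter at 5 FPKM. Both passed the main filter only through the controls, so these kept calls are a description. The MYC-type difference ran from -25.3 to -19.0 percentage points over left-out libraries. Max passed the threshold after median-of-ratios scaling (1.18), quantile normalization (1.18), and without control 1 (1.14) or controls 1 and 2 (1.62), and over single left-out libraries it ran from 0.59 to 1.14. Mlx did not pass without controls 3 and 4 (0.74). Mxd1 passed at 0.71 without controls 1 and 2, turned to -0.41 without controls 3 and 4, and ran from -0.04 to 0.40 over left-out libraries. Mxd4 turned to -0.39 without controls 3 and 4 and to -0.02 without mitochondrially encoded genes, and ran from -0.17 to 0.18. Mlxipl turned to 0.16 after median-of-ratios scaling, 0.30 after quantile normalization, 0.15 without controls 1 and 2 and 0.03 without triclocarban library 3, and ran from -0.34 to 0.03 over left-out libraries. Txnip turned to 0.07 and 0.19 under those scalings. The cause of these changes was not tested.

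The number of all tested genes that were higher (1466) was 2637 after median-of-ratios scaling, 2915 after quantile normalization, 2838 without controls 1 and 2, 695 without controls 3 and 4, and 953 to 1860 over left-out libraries. The number lower (3981) was 2492 with the filter at 5 FPKM, which tests fewer genes, and 3469 to 4180 over left-out libraries. Among the genes of the related lists, 8 were higher, and this was 20 after either scaling, 13 with library weights, 16 without controls 1 and 2, and 4 to 11 over left-out libraries. It was 4 without triclocarban library 1, 3 or 4.

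With the replicate number as a block, Max passed the threshold at the same difference of 0.89 (limma adjusted p = 0.038), the other members kept their calls, and 1544 genes were higher and 4061 lower. The labels do not state that libraries of the same number are paired. Deviations from the group means correlated at 0.34, 0.05, 0.09 and 0.10 for numbers 1 to 4. Controls 1, 3 and 4 correlated best with the triclocarban library of their own number, and control 2 with library 1. Whether the libraries are paired is not known.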

Other observations

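Of 10 listed genes known for repression by MYC, 5 were tested, 4 were lower and 0 higher, with a median of -1.52, where 30.8% of all tested genes were lower. Cdkn2b passed the filter only through the controls and so had to differ, which leaves 3 of 4. Cdkn2b, an inhibitor of cyclin-dependent kinases, went from 2.53 ± 1.20 to 0.112 ± 0.0955 FPKM, the growth arrest gene Gadd45a from 19.9 ± 7.02 to 4.31 ± 1.28 FPKM and Ndrg1 from 9.34 ± 3.75 to 2.49 ± 0.879 FPKM (SD, n = 4 each; limma adjusted p from 0.000403 to 0.00385, and 0.00327 for Cdkn2b with no filter). Genes listed as activated and genes listed as repressed by MYC thus had medians on the same side of that of all tested genes (-0.19).

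Other factors that bind E-boxes went both ways, with 2 of 9 tested genes higher, 1 lower and a median of 0.60, beside 11.3% higher and 30.8% lower of all tested genes. The median was 0.39 to 0.76 over left-out libraries, 0.17 without controls 3 and 4 and 1.03 without controls 1 and 2. Usf1 went from 9.69 ± 1.07 to 3.98 ± 1.05 FPKM (limma adjusted p = 0.00416), while its partner Usf2 went from 5.02 ± 2.55 to 11.2 ± 4.74 FPKM (0.0334) and Tfec, a relative of Mitf, from 0.758 ± 0.397 to 3.07 ± 1.22 FPKM (0.00677). Tfec passed the filter only through the triclocarban libraries and so had to differ (limma adjusted p = 0.0303 with no filter). Usf2 did not pass when single libraries were left out (control 2, 3 or 4, or triclocarban library 1, 3 or 4, with adjusted p up to 0.109). After median-of-ratios scaling or quantile normalization 5 of the 9 were higher and 1 lower.

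In 28 groups of 4 libraries (the 10 members, Mga, Mlxip, Mlxipl and the MYC-type share, in each treatment), no library stood apart from the others of its group by Dixon's 95% criterion. With 4 libraries the criterion flags only an extreme gap and cannot flag a split into pairs, so it does not show that the libraries were alike.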
